A study of Mus musculus with 6 samples.

Results

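The genes described here are the transforming growth factor beta (TGF-beta) ligands, their receptors, the latent TGF-beta binding proteins and the TGF-beta-induced matrix protein. They are Tgfb1, Tgfb2, Tgfb3, Tgfbr1, Tgfbr2, Tgfbr3, Ltbp1, Ltbp2, Ltbp3 and Tgfbi, 10 of the 55291 genes in the count table. They were chosen by name as a family, and partly because Tgfbr3 stood among the leading genes of the comparison of knockout with wild-type tumours. All 10 passed the filter on low counts and were among the 18621 genes tested. The libraries are bulk RNA-seq of tumours that CT2A, a mouse glioma line, formed under the skin. A set of 3 libraries came from Siglece KO mice (KO) and 3 from WT mice (WT). Siglece encodes Siglec-E, an inhibitory receptor of myeloid cells that binds sialic acid, and the question of the design is how tumours differ between hosts with and without it. Between 5000 and 20000 cells, which the labels call CT2A cells, were taken per sample for Smart-seq2, and how they were separated from host cells is not stated. A second label names brain as the source of these subcutaneous tumours. The labels give the same tumour line for both groups, and they do not give the age, sex or strain of the mice, what part of Siglece was deleted or in which cells. The labels do not say that replicates are separate mice, so the p-values reflect only how much these samples varied, and part of that may be technical.

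TGF-beta is made as a precursor whose propeptide stays wrapped around the mature cytokine, and this latent complex is tethered to the matrix by latent TGF-beta binding proteins. Integrins and proteases free the cytokine, which then binds the type II receptor TGFBR2. TGFBR2 phosphorylates the type I receptor TGFBR1, which signals through Smad proteins to the nucleus. In tumours TGF-beta is known for restraining T cells and for driving fibroblasts to make matrix.

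Library totals ran from 24369359 to 40574093 counts, and the targeted gene had 0, 8 and 0 counts in the KO libraries against 74, 99 and 64 in the WT libraries. Values listed for a group follow the order of its replicates 1, 2 and 3. The libraries differed in the levels of cell type markers. On the CPM scale (counts relative to the TMM-scaled library total), the summed level of 6 glial and glioma markers was 1579, 3629 and 1707 in KO tumours and ranged from 4383 to 5941 in WT. Most of this sum was Vim (1514, 3089 and 1665 CPM in KO, 3641 to 5246 CPM in WT), which fibroblasts and macrophages also express. Sox2, a neural stem cell factor of that list, was at 18.6, 147 and 4.74 CPM in KO libraries, against 205 to 228 CPM in WT, and Gfap had no count in KO replicate 3. Glial and glioma markers were low in KO replicates 1 and 3, and why was not tested. The host cell markers that follow do not match a label of CT2A cells alone. The summed level of 6 fibroblast markers was 15336, 5281 and 10432 CPM in KO libraries, against 893 to 1528 CPM in WT. Most of this sum was Col1a1 (13872, 4929 and 8841 CPM in KO, 785 to 1429 CPM in WT). The summed level of 6 macrophage markers was 5580, 1842 and 5813 CPM in KO against 757 to 1327 CPM in WT. The number of tested markers called higher in KO was 5 of 6 for T cells, macrophages, fibroblasts and endothelial cells each, 3 of 6 for pericytes, 3 of 5 for B and plasma cells, 4 of 5 for skeletal muscle, 1 of 5 for adipocytes and 1 of 3 for neutrophils, beside 11.2% of all tested genes. It was 0 of 2 for keratinocytes, 0 of 3 for platelets and 0 of 4 for erythroid cells (edgeR; 2, 1 and 1 of these genes had an unadjusted p under 0.05). Of the glial and glioma markers 1 of 6 was called lower, and all 6 had lower KO groups that did not overlap with WT, beside 0.226% and 19.5% of all genes. Krt5 and Gp9 had no count in any KO library. In such bulk samples, more cells of a type and more RNA per cell cannot be told apart.

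Among the ligands, Tgfb1 rose in KO tumours. It lies on the plus strand of chromosome 7 at 25687002 to 25705077 (mm10, ENSMUSG00000002603.15; 7 exons in its longest protein-coding transcript) and encodes the ligand that immune cells mainly make. Its level was 233, 95.7 and 281 CPM in the KO tumours, against 53.6, 39.3 and 34.3 CPM in the WT tumours. Every KO library lay above every WT library, and KO replicate 2 was the lowest of its group. The means were 203 ± 96.1 and 42.4 ± 10.01 CPM (SD, n = 3), a log2 fold change of 2.26 (SE 0.44, adjusted p = 0.0250, edgeR). The call was lost at adjusted p = 0.0969, 0.0502, 0.118, 0.109 and 0.120 (edgeR) without KO replicates 1 and 3 and WT replicates 1, 2 and 3 in turn, and held without KO replicate 2 (0.00121). With all libraries it also held under DESeq2 (5.97e-05), limma-voom (0.0419) and each other setting. Macrophage and T cell markers moved with it: relative to the WT mean, Tgfb1 was 2.48, 1.20 and 2.75 higher on the log2 scale in the KO tumours, the mean of the macrophage markers 2.96, 1.26 and 2.83, and that of the T cell markers 3.13, 1.36 and 3.04. Other host markers also had KO replicate 2 lowest: fibroblast (3.86, 1.84 and 4.01), B and plasma cell (3.80, 1.56 and 4.01) and skeletal muscle (2.96, 1.22 and 4.14). The pattern is therefore not particular to macrophage and T cell markers, and the part of any cell type in the result was not tested.

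Tgfb2 and Tgfb3 did not pass. Tgfb2 (ENSMUSG00000039239.14, chromosome 1, minus strand, 186622792 to 186705989, 7 exons), a ligand prominent in development and in neural tissue, was at 8.20, 11.1 and 6.48 CPM in the KO tumours. In the WT tumours it was at 4.04, 4.81 and 5.65 CPM, from 148 to 190 counts a library. The groups did not overlap, by a margin of 1.15 times between the lowest KO and the highest WT library, and its log2 fold change came to 0.83 (SE 0.37, adjusted p = 0.169, edgeR). Tgfb3 (ENSMUSG00000021253.7, chromosome 12, minus strand, 86056745 to 86079041, 7 exons), the ligand known for palate fusion, was at 42.4, 34.3 and 28.0 CPM in KO libraries, against 22.8, 23.8 and 32.7 CPM in WT. Its groups overlapped, with WT replicate 3 above KO replicate 3, and its log2 fold change came to 0.40 (SE 0.28, adjusted p = 0.340, edgeR), and 0.19 (adjusted p = 0.751, edgeR) without KO replicate 1. Exons of 2 predicted genes on the opposite strand, Gm37804 and Gm48008, cover 12.4% of the merged exon bases of Tgfb3, and the library method does not mark strand.

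The promoters of Tgfb1 and Tgfb2 are shown because these ligands had, on average, the greatest and the smallest share of the ligand transcripts. The windows run from 250 bases before to 50 bases after the RefSeq start site on GRCm38.p6, the build that mm10 names, and 8 of the 10 genes matched an entry. The first is chr7:25686752-25687051 on the plus strand, with the GC box GGGCGG (either strand) in capitals, and the second chr1:186705940-186706239 on the minus strand, with the TATA box TATAAA and the E-box CACGTG in capitals.
Tgfb1: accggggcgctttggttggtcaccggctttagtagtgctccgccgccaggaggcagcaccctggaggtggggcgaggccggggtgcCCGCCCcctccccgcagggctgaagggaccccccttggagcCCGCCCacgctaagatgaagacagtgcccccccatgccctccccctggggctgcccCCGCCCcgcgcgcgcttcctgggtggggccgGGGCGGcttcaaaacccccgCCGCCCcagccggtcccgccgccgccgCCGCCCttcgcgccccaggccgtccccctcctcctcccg
Tgfb2: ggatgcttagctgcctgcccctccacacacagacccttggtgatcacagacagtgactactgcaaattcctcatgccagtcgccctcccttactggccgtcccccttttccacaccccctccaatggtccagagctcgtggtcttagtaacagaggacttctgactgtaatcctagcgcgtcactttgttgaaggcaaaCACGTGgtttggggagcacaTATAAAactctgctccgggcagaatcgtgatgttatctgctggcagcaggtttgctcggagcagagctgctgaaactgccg
The Tgfb1 window was 77.0% G and C, against a median of 52.7% over the 32851 windows of all genes, and held 6 GC boxes and no TATA box. The Tgfb2 window was 54.3% G and C and held 1 TATA box, whose first base lies 31 bases before the start site, 1 E-box and no GC box. Over all windows, on either strand, 35.7% held a GC box, 13.6% a TATA box and 7.15% an E-box. The Smad palindrome GTCTAGAC stood in 0.213% of all windows and in none of the 10 windows of the family. These matches are descriptions of the letters in the window.

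The makeup of the ligand transcripts differed between the groups. Levels of different genes were compared per kilobase of merged exon, as shares within a library, which do not depend on the scaling between libraries. Tgfb1 made up 76.8%, 61.2% and 85.6% of the counts per kilobase of the 3 ligands in the KO tumours, against 58.9%, 49.8% and 39.0% in the WT tumours. All KO libraries were above all WT libraries, with KO replicate 2 and WT replicate 1 close to each other. Tgfb3 made up 20.9%, 32.7% and 12.7% in KO and 37.3%, 44.9% and 55.4% in WT, so that it was the most frequent ligand only in WT replicate 3. Tgfb2 stayed between 1.72% and 6.16% in every library and its groups overlapped. The mean share of Tgfb1 was 74.5 ± 12.4% in KO and 49.2 ± 9.95% in WT (SD, n = 3). No test was made, since 3 against 3 libraries cannot reach the threshold in an exact permutation test. Merged exons count every annotated exon of a gene, which weighs on Tgfb1 (5042 bases, against 2175 in its longest protein-coding transcript). With the coding transcript lengths the share of Tgfb1 was 86.5% in KO and 68.5% in WT, the groups again did not overlap, and Tgfb1 was the most frequent ligand in WT replicate 3 too (59.4%).

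**Figure D1:**
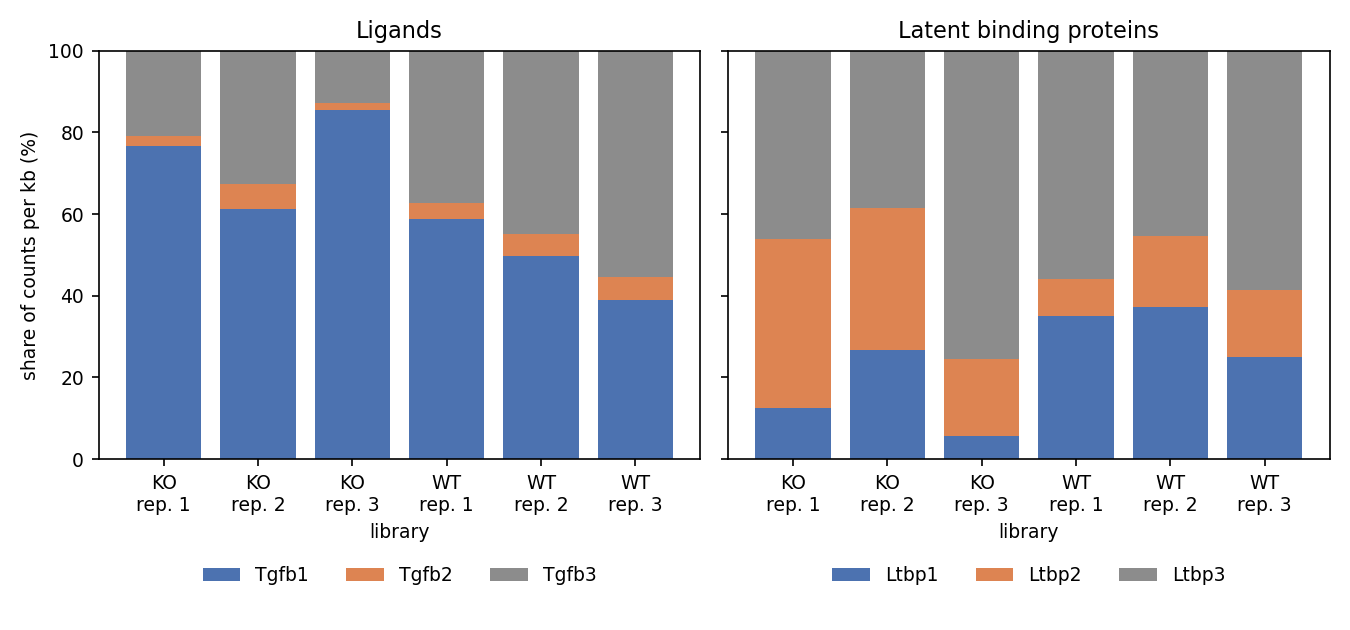
Stacked bars give the share (percent, y axis) of each gene in the counts per kilobase of merged exon of its family, for each of the 6 libraries (x axis): the 3 ligands on the left and the 3 latent binding proteins on the right. Tgfb1 takes 61.2% to 85.6% of the ligands in KO and 39.0% to 58.9% in WT, and Ltbp2 takes 18.8% to 41.3% of the binding proteins in KO and 9.12% to 17.3% in WT.

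Among the receptors, Tgfbr3 gave the widest difference of the family, and it is described without a test because this difference helped to choose the genes. Tgfbr3 (ENSMUSG00000029287.14, chromosome 5, minus strand, 107106570 to 107289629, 17 exons) encodes betaglycan, a proteoglycan that presents TGF-beta, TGF-beta 2 above all, to the signalling receptors. It had 3848, 1087 and 1699 counts in the KO tumours, against 166, 174 and 173 counts in the WT tumours. These were 131, 31.0 and 84.7 CPM in KO libraries, against 4.54, 4.96 and 5.15 CPM in WT. The WT libraries lay within a narrow range, and the lowest KO library, replicate 2, was 6.01 times the highest WT library. The means were 82.2 ± 50.01 and 4.88 ± 0.313 CPM (SD, n = 3), 16.8 times higher in KO, with a log2 fold change of 4.07 (SE 0.53). The log2 fold change was 3.50 to 4.45 when any 1 library was left out. These fits share libraries with the comparison that helped to choose the gene, so nothing is read from them. Fibroblast markers moved with it (their mean exceeded that of WT by 3.86, 1.84 and 4.01 log2 units, against 4.73, 2.65 and 4.10 for Tgfbr3). Macrophage (2.96, 1.26 and 2.83) and T cell markers (3.13, 1.36 and 3.04) also had KO replicate 2 lowest, so the pattern is not particular to fibroblast markers. The part of any cell type was not tested. The predicted gene Gm43422 on the same strand shares 4.54% of its merged exon bases.

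The signalling receptors were at more even levels. Tgfbr2 (ENSMUSG00000032440.13, chromosome 9, minus strand, 116084293 to 116175360, 8 exons), the type II receptor that binds the ligand first, was at 353, 154 and 194 CPM in the KO tumours, against 84.0, 85.5 and 126 CPM in the WT tumours. The groups did not overlap, KO replicate 1 stood above the other libraries, and the log2 fold change of 1.25 (SE 0.39, adjusted p = 0.0764, edgeR) did not pass. It passed under DESeq2 (0.0306), under limma-voom with quality weights (0.00261) and without KO replicate 2 (0.0150, edgeR). It also passed without KO replicate 2 and WT replicate 1 (0.0408, edgeR). Without KO replicate 1 the value was 0.77 (adjusted p = 0.300, edgeR). Tgfbr1 (ENSMUSG00000007613.15, chromosome 4, plus strand, 47353222 to 47414931, 9 exons), the type I receptor kinase, was at 109, 84.6 and 102 CPM in KO libraries, against 42.8, 57.4 and 71.2 CPM in WT. Its groups did not overlap either, and the log2 fold change of 0.78 (SE 0.28, adjusted p = 0.106, edgeR) did not pass. It passed under quality-weighted limma-voom (0.0112), without KO replicate 2 (0.0380, edgeR), or without KO replicate 2 and WT replicate 1 (0.0344, edgeR). Per kilobase, Tgfbr2 made up 72.1%, 59.2% and 60.4% of the pair in KO and 61.0%, 54.3% and 58.5% in WT, and these ranges overlapped. Per kilobase, betaglycan reached 0.464, 0.252 and 0.546 of the level of Tgfbr2 in the KO tumours, against 0.0676, 0.0725 and 0.0513 of it in the WT tumours.

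The latent binding proteins did not move together. Ltbp2 (ENSMUSG00000002020.15, chromosome 12, minus strand, 84783212 to 84876532, 36 exons), an elastic-fibre protein that, unlike its relatives, does not bind latent TGF-beta covalently, was at 80.8, 43.8 and 19.1 CPM in the KO tumours. In the WT tumours it was at 7.16, 16.4 and 17.8 CPM. KO replicate 3 was only 1.08 times the highest WT library, so the groups barely separated. Its change on the log2 scale was 1.80 (SE 0.57, adjusted p = 0.0797, edgeR) and did not pass. It passed under DESeq2 (0.0218), under limma-voom with quality weights (0.00173), with no low-count filter (0.0138, edgeR) and without KO replicate 3 (0.0460, edgeR). Without KO replicate 1 the value was 1.16 (adjusted p = 0.321, edgeR). Exons of D030025P21Rik on the opposite strand cover 9.34% of its merged exon bases.

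Ltbp1 was the only member with a negative log2 fold change. Ltbp1 (ENSMUSG00000001870.16, chromosome 17, plus strand, 75005568 to 75392512, 34 exons), which anchors latent TGF-beta to fibrillin and fibronectin, was at 32.0, 44.0 and 7.63 CPM in KO libraries, against 35.8, 46.4 and 35.0 CPM in WT. KO replicate 3 was far below the other 5 libraries, at 153 counts against 940 to 1627, while KO replicates 1 and 2 stood within or near the WT range. Its change on the log2 scale was -0.49 (SE 0.55, adjusted p = 0.5501, edgeR), and -0.06 (adjusted p = 0.904, edgeR) without KO replicate 3. It was -0.99 (adjusted p = 0.197, edgeR) without KO replicate 2 and -1.04 (adjusted p = 0.259, edgeR) without KO replicate 2 and WT replicate 1. The glial and glioma markers were also lowest in KO replicate 3 (their mean differed from that of WT by -3.02, -0.57 and -4.29 log2 units, against -0.28, 0.18 and -2.33 for Ltbp1), and their part was not tested. Ltbp3 (ENSMUSG00000024940.11, chromosome 19, plus strand, 5740904 to 5758532, 28 exons), another carrier of latent TGF-beta, was at 100 CPM in KO replicate 1, 53.6 in replicate 2 and 85.4 in replicate 3. It was at 48.7, 47.8 and 69.9 CPM in WT, the groups overlapped, and its log2 fold change came to 0.52 (SE 0.31, adjusted p = 0.271, edgeR). It passed only under limma-voom with quality weights (0.0481), and without KO replicate 1 the value was 0.27 (adjusted p = 0.669, edgeR).

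The promoters of Ltbp1 and Ltbp2 are shown because these binding proteins differed in the sign of their fold change. The Ltbp1 window is chr17:75005279-75005578 on the plus strand, the first of 2 start sites in RefSeq, with the cyclic AMP response element TGACGTCA in capitals. The Ltbp2 window is chr12:84876442-84876741 on the minus strand, with the GC box GGGCGG (either strand) in capitals.
Ltbp1: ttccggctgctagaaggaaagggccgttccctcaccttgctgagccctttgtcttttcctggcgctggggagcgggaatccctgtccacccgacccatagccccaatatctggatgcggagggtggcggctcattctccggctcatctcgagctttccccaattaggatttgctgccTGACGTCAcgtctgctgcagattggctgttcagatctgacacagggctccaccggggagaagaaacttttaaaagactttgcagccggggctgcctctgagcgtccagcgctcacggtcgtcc
Ltbp2: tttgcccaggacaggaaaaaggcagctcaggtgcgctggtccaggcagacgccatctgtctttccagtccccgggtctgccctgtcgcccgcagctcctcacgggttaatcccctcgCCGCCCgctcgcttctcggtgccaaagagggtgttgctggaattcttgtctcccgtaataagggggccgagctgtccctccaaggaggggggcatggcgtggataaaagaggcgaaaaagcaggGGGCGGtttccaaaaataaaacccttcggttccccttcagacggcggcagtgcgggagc
The response element in the Ltbp1 window starts 73 bases before the start site, and 1.79% of all windows hold one. None of the other 9 windows of the family held it. The Ltbp2 window held 2 GC boxes, and neither window held a TATA box. The single windows of Tgfb2, Tgfbr2, Ltbp2, Ltbp3 and Tgfbi, 1 of the 2 of Tgfbr1 and both of Ltbp1 held the short Smad element CAGAC (either strand), as did 49.6% of all windows.

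Among Ltbp1, Ltbp2 and Ltbp3 the shares per kilobase differed between the groups for Ltbp2. Ltbp2 made up 41.3%, 34.8% and 18.8% in the KO tumours, against 9.12%, 17.3% and 16.5% in the WT tumours, which did not overlap. Ltbp1 made up 12.5%, 26.8% and 5.72% in KO and 34.9%, 37.3% and 24.9% in WT, which overlapped through KO replicate 2 and WT replicate 3. Ltbp3 was the most frequent of these 3 in every library and reached 75.5% in KO replicate 3, while Ltbp4, which is not in the shares, was above Ltbp3 per kilobase in 5 of 6 libraries. These values were not tested. Summed per kilobase, the 3 ligands stood at 2.52, 2.02 and 5.22 times the 3 binding proteins in the KO tumours, against 1.88, 1.35 and 1.33 times in the WT tumours, with KO replicate 2 close to WT replicate 1. With Ltbp4, a latent binding protein outside the chosen family, added to the binding proteins, the ratios were 1.92, 1.12 and 2.64 in the KO tumours and 0.845, 0.562 and 0.564 in the WT tumours, so the ligands were then below the binding proteins in each WT library.

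Tgfbi was the most abundant member. Tgfbi (ENSMUSG00000035493.10, chromosome 13, plus strand, 56609523 to 56639562, 17 exons) encodes a secreted matrix protein that was first found as a TGF-beta-induced gene and that macrophages and fibroblasts make. It was at 707, 583 and 645 CPM in the KO tumours, against 365, 355 and 237 CPM in the WT tumours. Each KO library was at least 1.60 times each WT library, and the KO libraries were close to one another. The means were 645 ± 61.8 and 319 ± 71.2 CPM (SD, n = 3), and the log2 fold change of 1.01 (SE 0.32, adjusted p = 0.0814, edgeR) did not pass. It passed under DESeq2 (0.0135), under limma-voom with quality weights (0.00748) and without KO replicate 2 (0.0321, edgeR). It also passed without KO replicate 2 and WT replicate 1 (0.0300, edgeR). Unlike Tgfb1, whose log2 difference from the WT mean ran from 1.20 to 2.75 over the KO libraries, Tgfbi kept within 0.89 to 1.17.

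**Figure D2:**
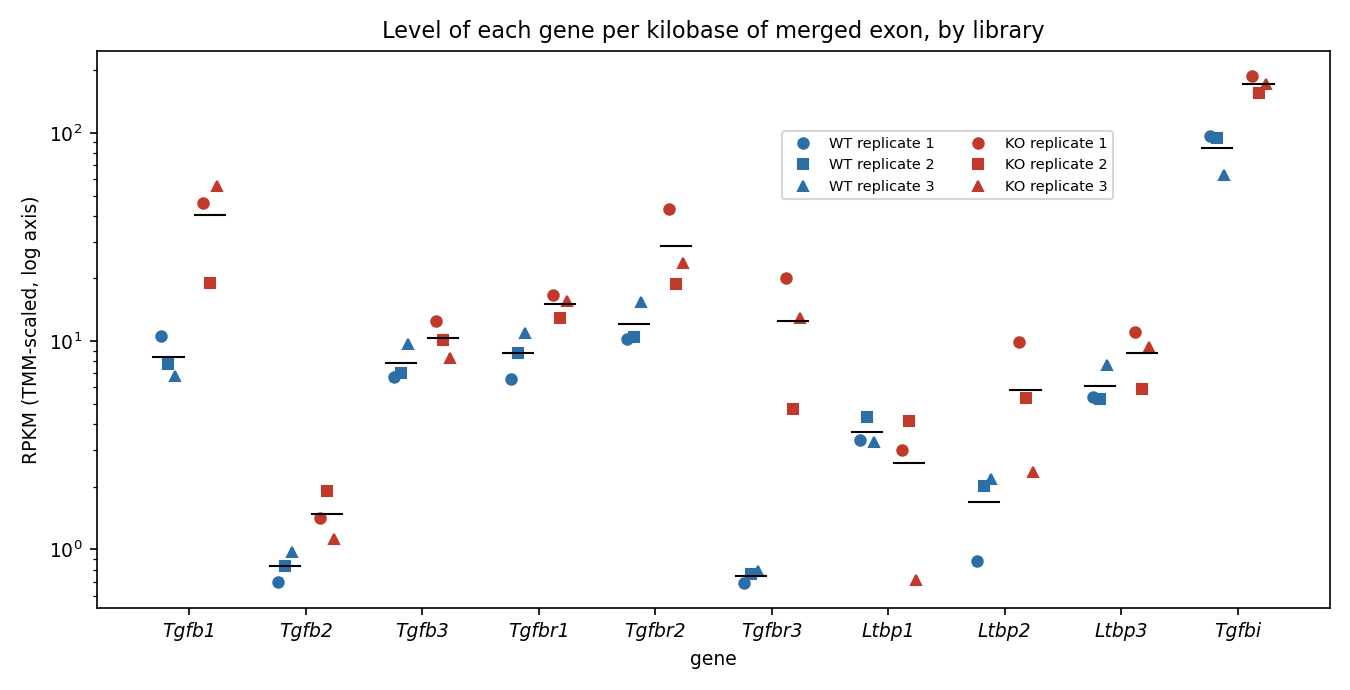
Points give the TMM-scaled RPKM (CPM per kilobase of merged exon, y axis, log scale) of each gene (x axis) in each WT (blue) and KO (red) library, with the marker shape for the replicate and a black line for the group mean. Tgfbi lies above the other genes in both groups, Tgfbr3 shows the widest gap between groups, and the low KO point of Ltbp1 is KO replicate 3.

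Apart from Tgfbr3, 1 of the 9 members (Tgfb1) was called higher and 0 lower by edgeR, beside 11.2% of all 18621 tested genes called higher and 0.226% called lower. At an unadjusted p under 0.05, 5 of the 9 passed, beside 31.8% of all genes (5919). Groups did not overlap, with KO higher, for 6 of the 9, beside 24.6% of all genes. The median log2 fold change of the 9 was 0.83 and that of all tested genes -0.05. The family was chosen with this comparison known, so nothing is read from these counts. With KO replicate 1 or any single WT replicate left out, edgeR called 0 of the 9 and 0 of all genes, while 1, 3, 3 and 4 of the 9, and 3461, 4931, 4282 and 4246 of all genes, had an unadjusted p under 0.05. Other tools were not run on these smaller sets. The share of all genes called in either direction was 11.4% here, 9.97% with RLE scaling, 9.32% without composition scaling, 10.2% with no low-count filter, 13.6% with a stricter filter, 24.8% with DESeq2, 5.47% with limma-voom and 55.2% with quality weights. It was 41.2% without KO replicate 2, 4.88% without KO replicate 3 and 45.9% without KO replicate 2 and WT replicate 1, and the calls that members gained under these settings stand beside those shares.

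Levels of different members were ordered by mean RPKM. In WT the order was Tgfbi (84.7 ± 18.9), Tgfbr2 (12.0 ± 2.88), Tgfbr1 (8.75 ± 2.18), Tgfb1 (8.41 ± 1.99), Tgfb3 (7.81 ± 1.62), Ltbp3 (6.11 ± 1.38), Ltbp1 (3.65 ± 0.592), Ltbp2 (1.68 ± 0.705), Tgfb2 (0.835 ± 0.139) and Tgfbr3 (0.746 ± 0.0479; SD, n = 3). Neighbours had separate ranges at 3 steps, from Tgfbi to Tgfbr2, from Ltbp3 to Ltbp1 and from Ltbp1 to Ltbp2, and the other 6 steps overlapped. In KO the order was Tgfbi (171 ± 16.4), Tgfb1 (40.3 ± 19.1), Tgfbr2 (28.5 ± 12.8), Tgfbr1 (15.1 ± 1.92), Tgfbr3 (12.6 ± 7.64), Tgfb3 (10.3 ± 2.14), Ltbp3 (8.78 ± 2.62), Ltbp2 (5.85 ± 3.79), Ltbp1 (2.61 ± 1.73) and Tgfb2 (1.48 ± 0.401; SD, n = 3). Only Tgfbi to Tgfb1 and Tgfbr2 to Tgfbr1 had separate ranges there. Tgfbr3 was last in WT and at place 5 in KO, and with coding transcript lengths it was last and at place 6. With those lengths Tgfb1 was second in both groups.

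The KO libraries did not share one pattern over the family. Among them Tgfb1 was highest in KO replicate 3, Tgfbr2, Tgfbr3, Ltbp2, Ltbp3, Tgfbr1, Tgfb3 and Tgfbi in KO replicate 1, and Tgfb2 and Ltbp1 in KO replicate 2. For Tgfb1, Tgfbr1, Tgfbr2, Tgfbr3, Ltbp3 and Tgfbi the library nearest to WT was KO replicate 2, which also had the highest glial and glioma markers and the lowest fibroblast, macrophage and T cell markers of the KO group. For Tgfb2, Tgfb3 and Ltbp2 the nearest was KO replicate 3. By the mean of each list, that library had the highest adipocyte (4.24 above WT on the log2 scale) and skeletal muscle markers (4.14). It also had the highest mean of the 3 tested neutrophil markers (5.38). Of these, S100a8 and Retnlg were highest in KO replicate 3, and Csf3r in KO replicate 1 (146 CPM, against 114 CPM in KO replicate 3).

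**Figure D3:**
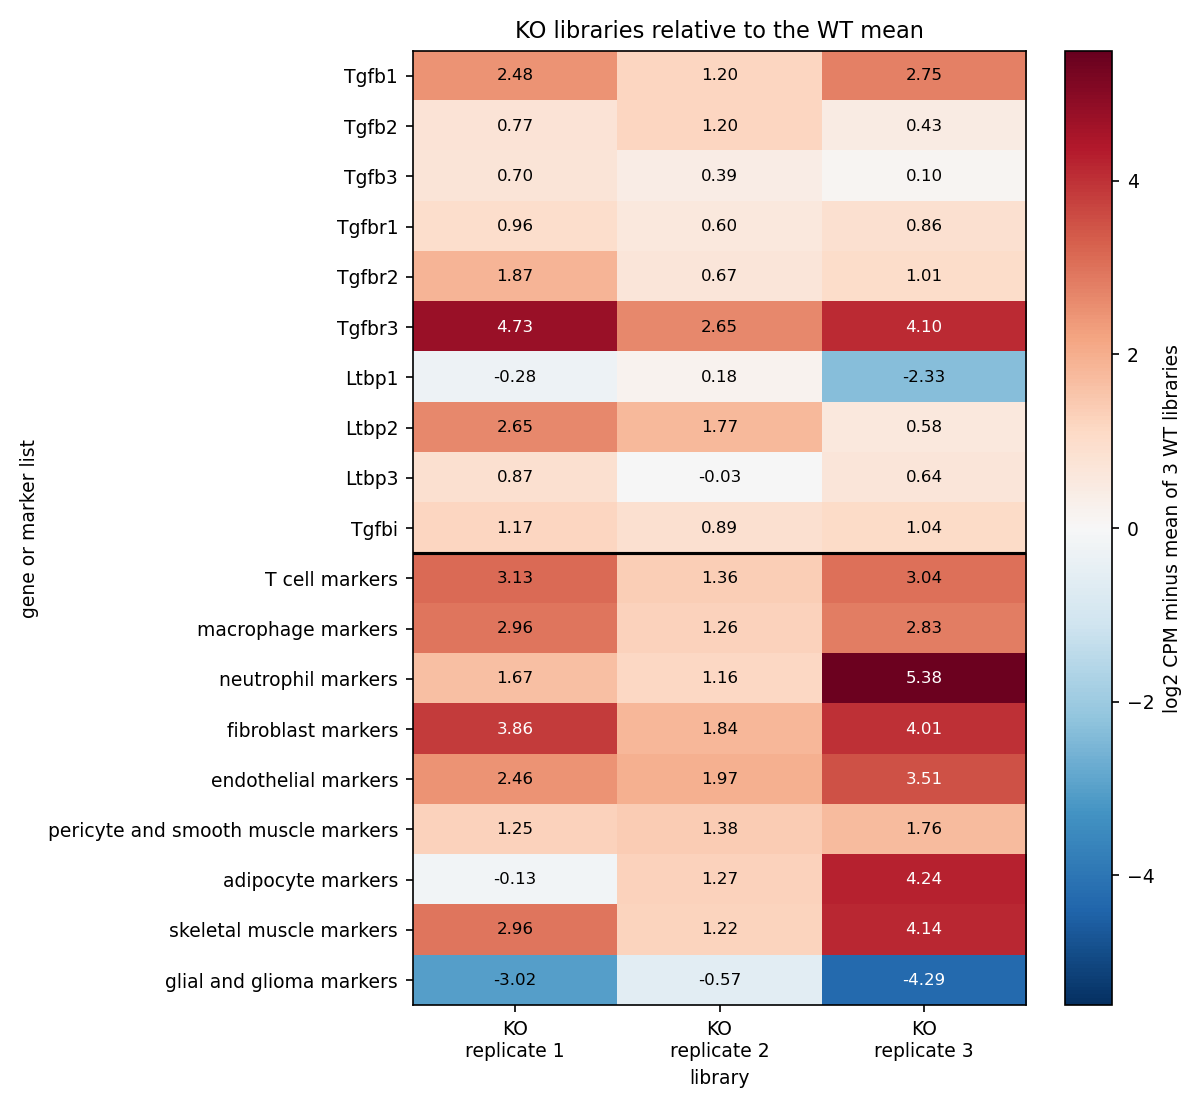
The colour and number of each cell give the log2 CPM in a KO library (x axis) minus the mean of the 3 WT libraries, for each of the 10 genes above the line and for the mean of each marker list below it (y axis). Tgfbr3 ranges from 2.65 to 4.73 and Ltbp1 from -2.33 to 0.18, and the glial and glioma markers are at -4.29 in KO replicate 3.

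Of 88 other tested genes of the pathway, from 6 lists written by role, 32 rose in KO tumours and 0 fell. The same share over all genes was 11.2% higher and 0.226% lower. The lists were written by textbook role with earlier results of these data known. The median log2 fold change of the 88 was 0.95, against -0.05 for all tested genes. Of the 88, 39 rose and 3 fell with DESeq2, which called 17.9% of all genes higher and 6.83% lower. With limma-voom 25 rose, beside 5.31% of all genes. Without KO replicate 3 it was also 25 (edgeR), beside 4.85% of all genes. With KO replicate 1 or any single WT replicate left out none passed with edgeR. In these fits 40 of 88 and 42, 45 and 42 of 89 had an unadjusted p under 0.05. The counts over all tested genes were 3461 of 19380, 4931 of 19694, 4282 of 19483 and 4246 of 19503. Without KO replicate 2, 42 of 89 rose and 11 fell (edgeR), beside 22.7% and 18.5% of all genes.

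Genes that hold or free latent TGF-beta rose in part. Of 19 activators and anchors 9 rose (Fbn1, Nrros, Lrrc32, Itgb3, Mmp2, Mmp9, Mmp14, Plau and Tgm2), beside 11.2% of all genes. The list median was 1.20 on the log2 scale. Nrros, which holds latent TGF-beta on myeloid cells, was at 173, 54.7 and 156 CPM in the KO tumours, against 18.4, 22.5 and 17.4 CPM in the WT tumours. Lrrc32, the GARP anchor of regulatory T cells and platelets, was at 40.0, 18.6 and 52.2 CPM and 5.90, 4.70 and 7.35 CPM. Both anchors had separate groups and KO replicate 2 as the lowest KO library. Nrros was 3.16, 1.499 and 3.01 above the mean of WT in log2 units, where the macrophage markers were 2.96, 1.26 and 2.83 and the fibroblast markers 3.86, 1.84 and 4.01 above it, and their part in this list was not tested. Plau, the urokinase that generates plasmin, had a log2 fold change of 2.43 (SE 0.32), Mmp9, a gelatinase, 2.98 (SE 0.45) and Itgb3, an integrin subunit, 1.92 (SE 0.31), each at adjusted p = 0.0246 as for Nrros and Lrrc32 (edgeR). Ltbp4, the fourth latent binding protein, did not pass (48.4, 80.1 and 78.9 CPM in KO libraries against 76.2, 105 and 115 CPM in WT, adjusted p = 0.262, edgeR). Other genes of this list, integrin subunits among them, had negative log2 fold changes. Itgb8 was at -1.96 (SE 0.65, adjusted p = 0.0934, edgeR), with each KO library below each WT library. Itgav was at -1.11 (adjusted p = 0.156, edgeR) and Fbn2 at -0.86 (adjusted p = 0.125, edgeR), both with overlapping groups.

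All 6 ligand-binding proteoglycans and antagonists rose, beside 11.2% of all genes, with a list median of 3.16. Without KO replicate 3 it was 4 of 6 (edgeR), beside 4.85% of all genes. With KO replicate 1 or any single WT replicate left out edgeR called 0 of the 6 and 0 of all genes. Dcn, the proteoglycan decorin that binds TGF-beta in the matrix, was at 720, 170 and 865 CPM in KO libraries, against 55.5, 29.7 and 38.6 CPM in WT (log2 fold change 3.82, SE 0.64). Its relatives Bgn (2.69, SE 0.43) and Aspn (3.60, SE 0.60) rose beside it, each at adjusted p = 0.0246 (edgeR). Dcn is also one of the fibroblast markers above. In the KO tumours the mean of this list was 3.76, 2.10 and 3.47 log2 units above WT. That of the fibroblast markers, Dcn included, was 3.86, 1.84 and 4.01 above WT. Single fibroblast markers differed: Pdgfra (3.33, 1.79 and 1.11) was lowest in KO replicate 3, and Dcn, Lum, Dpt, Pi16 and Col1a1 in KO replicate 2. Of 7 accessory receptors 3 rose, beside 11.2% of all genes, namely Eng and Acvrl1, endothelial receptors of the family, and Vasn. With DESeq2 4 rose and 1 fell, beside 17.9% and 6.83% of all genes. Cd109 went the other way, at -1.57 (SE 0.66, adjusted p = 0.151, edgeR), with each KO library below each WT library. Eng was at 142, 90.7 and 108 CPM in KO libraries, against 39.1, 31.8 and 32.0 CPM in WT (log2 fold change 1.73, SE 0.27). On the log2 scale Eng was 2.06, 1.41 and 1.65 and Acvrl1 2.60, 1.21 and 2.29 above WT in the KO tumours. The mean of the endothelial markers was 2.46, 1.97 and 3.51 above WT, and that of the macrophage markers 2.96, 1.26 and 2.83. Their part was not tested.

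The Smads and their regulators gave no call with all libraries in edgeR. Of 16 genes 0 passed, and 3 had an unadjusted p under 0.05, beside 31.8% of all genes. With DESeq2 1 rose and 1 fell, beside 17.9% and 6.83% of all genes. With limma-voom 0 passed, and with quality weights 5 rose and 4 fell, beside 29.7% and 25.5% of all genes. In edgeR fits, 1 rose and 1 fell without KO replicate 2, beside 22.7% and 18.5% of all genes. There 1 rose and 5 fell without KO replicate 2 and WT replicate 1, beside 24.6% and 21.4%. The list median was -0.12. Smad7, the inhibitory Smad that the pathway itself induces, was at 24.2, 24.04 and 16.2 CPM in KO libraries, against 12.8, 16.4 and 14.7 CPM in WT, with KO replicate 3 inside the WT range (log2 fold change 0.56, SE 0.29, adjusted p = 0.219, edgeR). Skil, a co-repressor that is also induced by the pathway, was at 73.8, 62.8 and 66.4 CPM and 48.0, 67.5 and 61.2 CPM (adjusted p = 0.580, edgeR). Ski had separate groups (184, 112 and 154 CPM in KO libraries against 53.3, 78.3 and 86.1 CPM in WT) and an adjusted p of 0.0696 (edgeR). Tgif2, a repressor of Smad targets, was lower in each KO library (15.0, 19.1 and 11.3 CPM) than in any WT library (28.8, 24.8 and 27.7 CPM), with an adjusted p of 0.100 (edgeR).

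Of 21 textbook response genes 8 rose, and they were collagen and matrix genes (Col1a1, Col1a2, Col3a1, Postn and Lox), the transcription factors Snai1 and Snai2, and Sphk1. These 8 of 21 stand beside 11.2% of all genes. The list median was 1.05, and 5 rose without composition scaling, beside 9.19% of all genes. Col1a2, a chain of type I collagen, was at 12351, 4042 and 9165 CPM in KO libraries, against 742, 920 and 1089 CPM in WT. Snai2 was at 13.1, 7.26 and 10.8 CPM and 1.61, 1.57 and 1.61 CPM, and Lox, which crosslinks collagen, at 232, 92.0 and 235 CPM and 15.8, 37.2 and 34.5 CPM, with adjusted p = 0.0246 for all 3 (edgeR). Col1a1 is also one of the fibroblast markers. In the KO tumours Col1a2 was 3.77, 2.16 and 3.34, Lox 3.08, 1.75 and 3.10 and Postn 2.82, 1.66 and 1.38 log2 units above WT. The mean of the fibroblast markers was 3.86, 1.84 and 4.01 above WT, and their part was not tested. The other 13 response genes were not called, and some were lower in KO or near 0. Cdkn2b had a log2 fold change of -1.05 (SE 0.45, adjusted p = 0.151, edgeR), with each KO library below each WT library. Timp1 was also at -1.05 (adjusted p = 0.188, edgeR), with overlapping groups. Ccn2 was at -0.17 (adjusted p = 0.858, edgeR) and Cdkn1a at -0.10 (adjusted p = 0.823, edgeR).

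Of 20 tested ligands, receptors and antagonists of the wider superfamily 6 rose, beside 11.2% of all genes, with a list median of 0.68. Among them were Bmp1, a protease that trims procollagen and latent TGF-beta binding protein (424, 199 and 323 CPM in KO libraries against 92.7, 72.3 and 81.9 CPM in WT), and Fstl1, a secreted follistatin relative (748, 343 and 580 CPM, and 127, 137 and 155 CPM). Their log2 fold changes were 1.94 (SE 0.35) and 1.995 (SE 0.37). Over the KO libraries Bmp1 was 2.37, 1.28 and 1.98 and Fstl1 2.42, 1.30 and 2.06 log2 units above WT. KO replicate 2 was lowest, as for fibroblast (3.86, 1.84 and 4.01), macrophage (2.96, 1.26 and 2.83) and T cell markers (3.13, 1.36 and 3.04). The pattern is therefore not particular to fibroblast markers, and the part of any cell type was not tested. With limma-voom 2 of the 20 rose, beside 5.31% of all genes, and without composition scaling 3 rose, beside 9.19%. Groups did not overlap with KO higher for 7 of the 20 and with KO lower for 1, Fstl3, beside 24.6% and 19.5% of all genes. Fstl3 had a log2 fold change of -0.77 (SE 0.42, adjusted p = 0.237, edgeR). Bmp4 and Nog were below the low-count filter and were not tested.

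**Figure D4:**
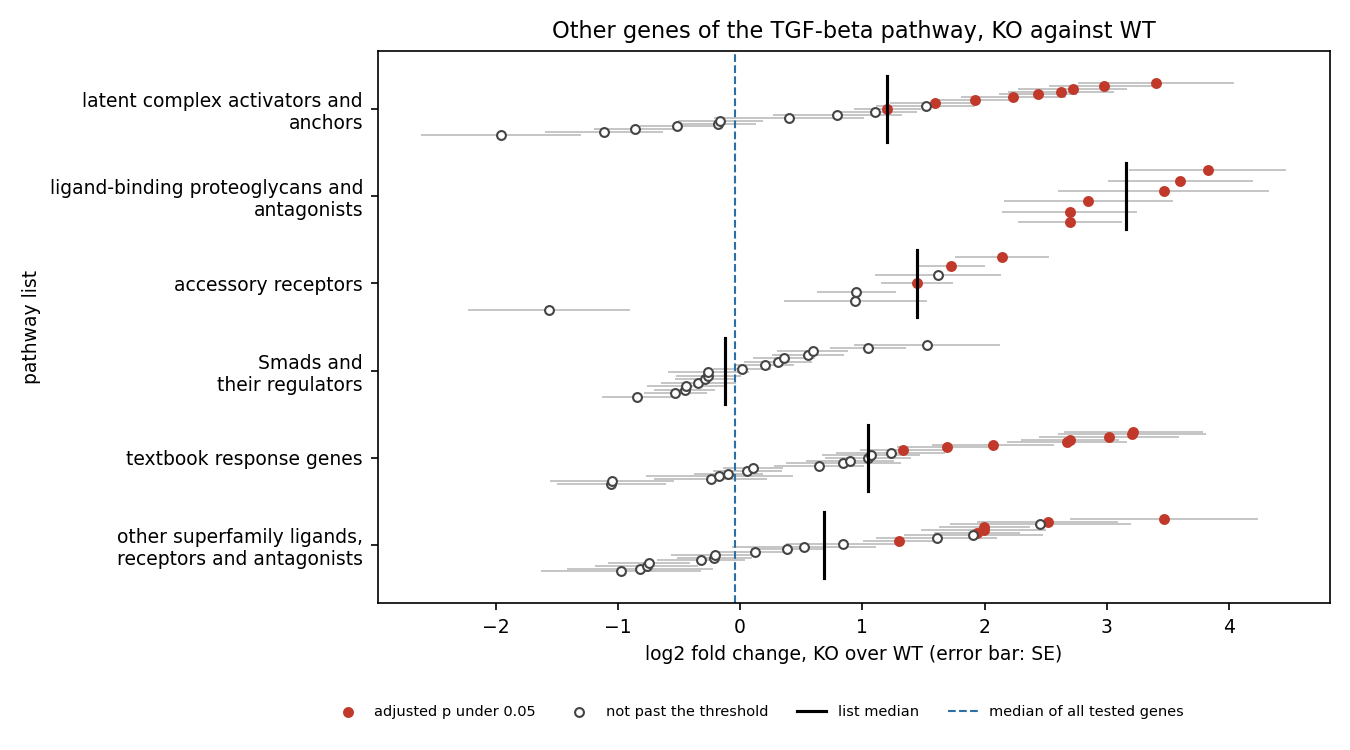
Each point is the log2 fold change of KO over WT (x axis, with its SE) of a tested gene in 1 of 6 pathway lists (y axis), red where the edgeR adjusted p was under 0.05, with a black line at the list median and a dashed line at the median of all tested genes. All 6 ligand-binding proteoglycans and antagonists are red, and none of the 16 Smads and regulators is.

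The genes with levels most like those of each member were found by the root mean square difference of log2 CPM, each gene centred on its mean over the 6 libraries, among 12671 tested genes. Nearest to Tgfbr3 were Srpx (0.19), a sushi-repeat protein, Meg3 (0.25), an imprinted long non-coding RNA, and Pdgfrl (0.25). Srpx was at 50.5, 13.4 and 41.3 CPM in the KO tumours, against 2.54, 1.94 and 2.50 CPM in the WT tumours. Nearest to Tgfb1 was Scarf1 (0.07), a scavenger receptor, at 38.1, 15.6 and 50.1 CPM and 9.29, 7.18 and 5.53 CPM. Nearest to Ltbp2 was Col12a1 (0.18), a fibril-associated collagen, at 1286, 670 and 237 CPM and 135, 236 and 269 CPM, where KO replicate 3 lay inside the WT range. Tgfb2 was nearest to Igfbp3 (0.17), Tgfbr2 to Glb1l (0.12), Tgfbr1 to Zfp28 (0.09), Tgfb3 to Zfp420 (0.04), Ltbp1 to Zfp697 (0.10), Ltbp3 to Klhl5 (0.08) and Tgfbi to Hspa1b (0.12). With 6 libraries and many genes, near neighbours are found for most patterns.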

How the data were processed

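The deposited file holds unnormalized read counts by gene, 1 column a library, beside the exon coordinates and lengths that featureCounts writes, per the file headers. Per the submitters' processing notes the build was mm10 and DESeq2 was used. How reads were aligned, and whether strand or multiple alignments were considered, was not given in the sources used here. All 6 count columns were used. Gene positions came from GENCODE M21 and matched the table for all 10 members, and promoters came from RefSeq.

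Genotypes were tested by quasi-likelihood in edgeR 4.0.16 under R 4.3.3 (two-sided F test, TMM, filterByExpr defaults, group as the only term). P-values were adjusted by Benjamini-Hochberg over 18621 genes, which held 99.9% of counts, with a threshold of 0.05. The SE was obtained from the log2 fold change and F. Log2 CPM used a prior count of 2. A count of 0 allows up to 3 counts, 0.0820 to 0.150 CPM by library, covering counting error only. Alternatives used DESeq2 1.42.0 and limma 3.58.1. The fit was tested on simulated data.

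The members and lists were chosen with earlier results of these data known. The genes named are the members, up to 4 genes per pathway list with the smallest p (not all are given values), Smad7, Skil, Lrrc32, Nrros and Ltbp4, marker genes at 0 in a whole group, and the nearest genes by level (3 for Tgfbr3, 1 for each other member, predicted gene models and genes of low mean level left out). A further gene of this rule is not reported here. Sox2, Gfap, Itgb8, Itgav, Fbn2, Cdkn2b, Timp1, Ccn2, Cdkn1a and the pathway genes listed only as having risen were named after their values were seen. So were Cd109, Fstl3, Postn, Col1a1, Pdgfra, Lum, Dpt, Pi16, Csf3r, S100a8 and Retnlg. Replicates were numbered by accession, so numbers pair nothing. No pair of libraries matched within sampling noise (chi-square over its degrees of freedom 11.1 for the closest, WT replicates 2 and 3).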

Additional observations from a re-analysis of the deposited data

How the results depend on the processing

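The sign of the log2 fold change of each of the 10 members was the same under all 14 alternatives. For Tgfbr3 nothing is read from this, since the alternatives share libraries with the comparison that helped to choose it. The count of all genes past the threshold, 2125, was 3356 with no low-count filter, 4510 with DESeq2, 1019 with limma-voom, 10280 with quality weights, 8809 without KO replicate 2 and WT replicate 1, and 0 to 8078 with 1 library left out. For the 9 members apart from Tgfbr3 it was 1, then 2 with no filter, 4 with DESeq2 (24.8% of all genes called), 6 with quality weights (55.2%), 4 without KO replicate 2 and WT replicate 1 (45.9%), and 0 to 4 with 1 library left out. The pathway genes numbered 88 in the main fit and 88 or 89 with libraries left out. For them the count past the threshold was 32, then 63 with quality weights (46 higher, 17 lower). It was 54 without KO replicate 2 and WT replicate 1 (40 higher, 14 lower), and 0 to 53 with 1 library left out. Without composition scaling the median log2 fold change of all genes was -0.18 in place of -0.05, and that of the 9 members 0.71 in place of 0.83.

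The difference in the Ltbp3 share, 0.06 percentage points, was -11.0 without KO replicate 3 and -3.90 without WT replicate 2, and 7.53 at most. Neighbouring members with separate ranges numbered 1 in KO and 5 in WT without length scaling, against 2 and 3, and 4 in KO and 3 to 5 in WT with 1 library left out. The other share differences kept their sign under each alternative. Coding transcript lengths and the addition of Ltbp4 were alternatives chosen after seeing the data. The causes were not tested. Tgfb2 had 130 to 389 counts a library, and depth as a limit was not tested. No paired analysis was possible because the replicate numbers follow accession order and the labels pair no libraries.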
